A study of Caenorhabditis elegans with 2 samples.

Results

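The 6 genes described here encode the Wnt receptors of Caenorhabditis elegans named Frizzled (lin-17, mig-1, mom-5 and cfz-2), Ryk (lin-18) and Ror (cam-1), and they are 6 of 19973 protein-coding genes on the nuclear chromosomes. Binding of EGL-5, the posterior Hox protein related to fly Abdominal-B, was measured by chromatin immunoprecipitation followed by sequencing (ChIP-seq) of an eGFP fusion in whole L3 larvae. All worms, males and hermaphrodites pooled, came from strain OP54, with the unc-119(ed3) allele and the insertion wgIs54 that holds tagged egl-5 (copy number not given). The labels list the antibody target as egl-5. The 2 biological replicates form 1 group, and no untagged or input sample was analysed here. Whole larvae mix all tissues, so binding in the few cells that make EGL-5 is diluted by the rest of the animal. Peaks were taken into a receptor locus when their summit lay in the gene body or in the intergenic sequence up to the nearest protein-coding neighbour on each side. The labels give each replicate a biosample of its own from the same strain.

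Wnt proteins are secreted lipid-modified signals. Frizzled receptors bind them through a cysteine-rich domain and pass the signal to Dishevelled inside the cell, whereas Ryk and Ror are single-pass receptors that also bind Wnts. In the worm these receptors set the polarity of dividing cells and the migration of neurons along the body axis. LIN-17 and LIN-18 orient vulval cell divisions, MOM-5 acts in the early embryo in endoderm induction, MIG-1 and CFZ-2 guide migrating neurons, and CAM-1 acts in neuronal migration and can hold back Wnt ligand. Cells that respond to Wnt in the tail region, such as rectal and male tail lineages, are among those in which egl-5 acts.

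The summit sequences of lin-18 and cam-1, and of the highest peak at cfz-2, are shown so that the words searched for can be seen in place. Each runs for 50 bp on either side of the summit, on the plus strand of ce11, 5′ to 3′, and was read from the RefSeq copy of assembly WBcel235. The lin-18 window is chrX:3952601-3952701, the windows of cam-1 are chrII:9299858-9299958 and chrII:9308772-9308872, and the cfz-2 window is chrV:3454594-3454694. Capitals mark any match on either strand to the 9 words searched, which are given with the sequence results further on.
lin-18, intergenic: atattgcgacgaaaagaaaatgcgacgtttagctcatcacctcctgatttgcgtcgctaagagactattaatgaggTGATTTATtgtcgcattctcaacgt
cam-1, intron 3: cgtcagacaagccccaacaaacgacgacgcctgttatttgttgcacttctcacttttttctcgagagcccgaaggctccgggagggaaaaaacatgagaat
cam-1, intron 1: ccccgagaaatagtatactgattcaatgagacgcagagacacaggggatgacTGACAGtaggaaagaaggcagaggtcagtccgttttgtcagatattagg
cfz-2, intergenic: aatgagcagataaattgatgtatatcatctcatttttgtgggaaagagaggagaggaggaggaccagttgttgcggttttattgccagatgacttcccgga
The lin-18 window holds the octamer TGATTTAT, a joint Hox and Pbx-type word, and the window in intron 1 of cam-1 holds TGACAG, a Meis-type word. The stronger cam-1 window and the cfz-2 window hold none of the 9.

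Of the 6 receptor genes, 4 had a summit of the IDR set in their locus: lin-17 and cam-1 with 2 each, and mom-5 and lin-18 with 1 each. The genes mig-1 and cfz-2 had none. The IDR set is the authors' list of 2570 peaks kept for their irreproducible discovery rate, a measure of how well peak ranks agree between replicates. Its members were those with the highest scores in the pooled list of 28619, with scores on the authors' own scale from 30.8 to 510. By the same locus rule 16.9% of all protein-coding genes had an IDR summit. Receptor loci were long, at a median of 17.3 kb against 4.78 kb for all genes, and long loci held summits more often. Of the 5151 genes with loci in the receptors' range of lengths, 8.06 to 26.5 kb, 27.9% had a summit and 7.96% had 2 or more. Only the range was matched, and the median locus of this set was shorter than that of the receptors, at 12.2 kb. The receptors' count of 4 in 6 is given as a description, since the genes were chosen with results of these data known.

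**Figure D1:**
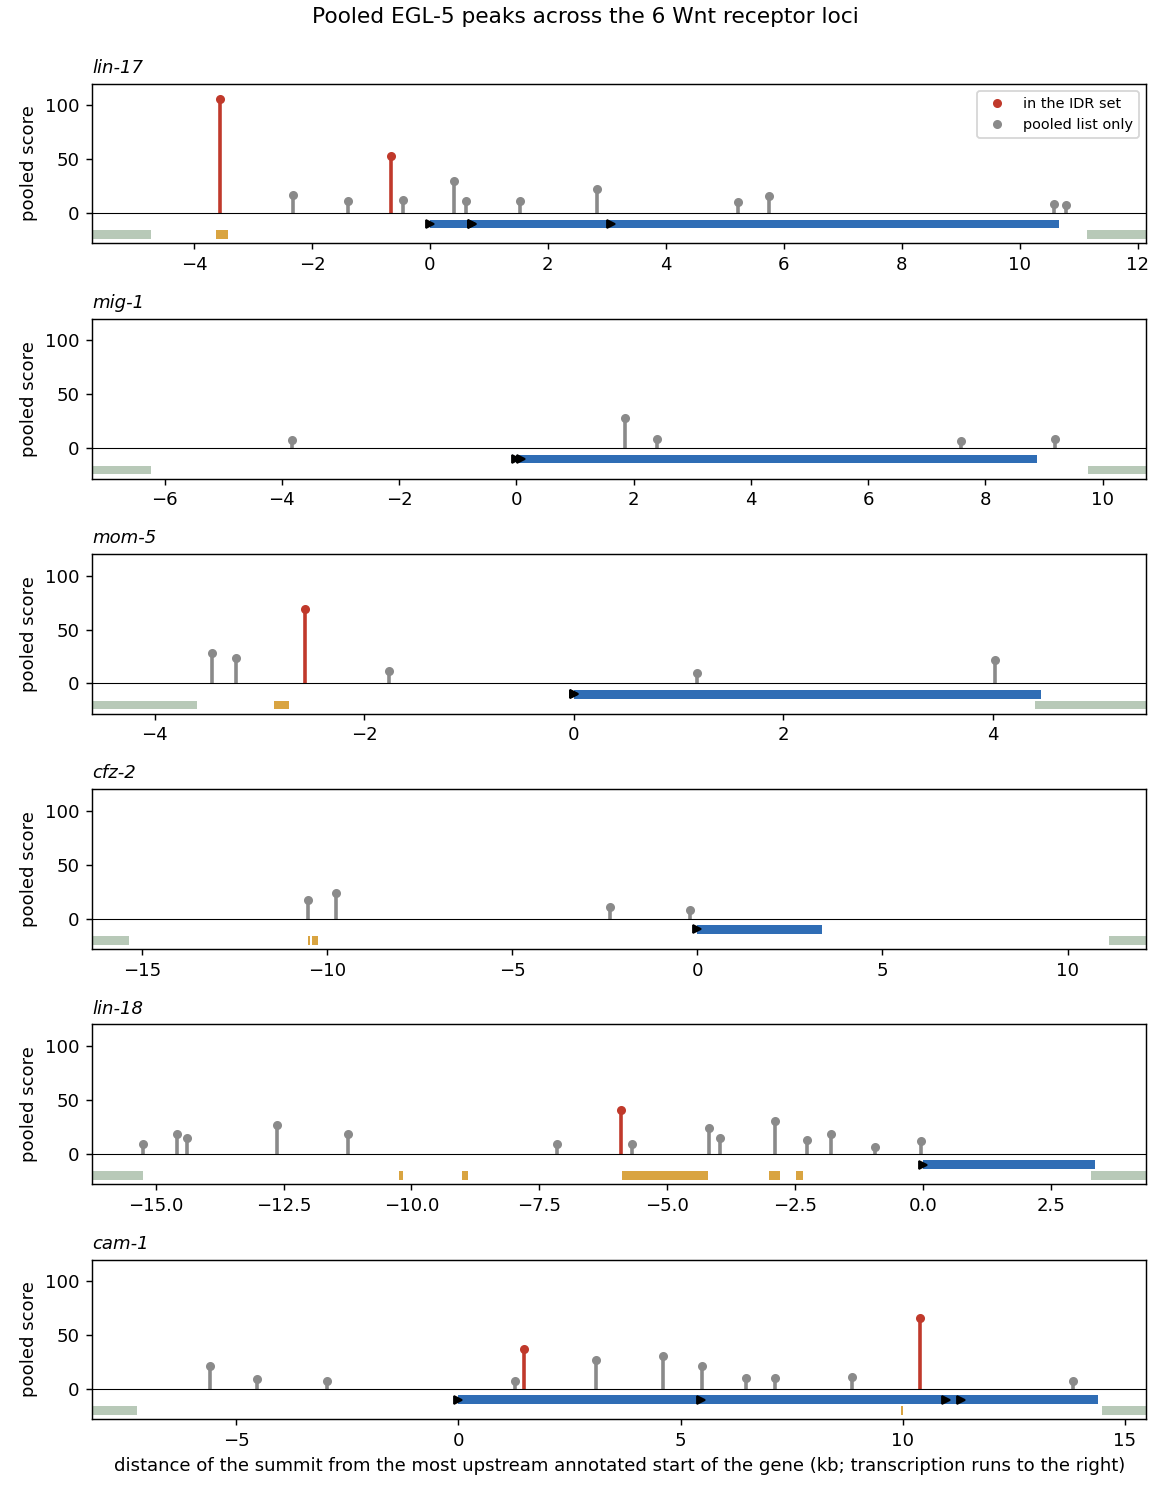
Pooled peaks across the 6 receptor loci, with the distance of each summit from the most upstream start in kb on the horizontal axis and the authors' pooled score on the vertical axis. Red stems are peaks of the IDR set and grey stems are weaker pooled peaks; blue bars are the receptor genes with black arrowheads at coding starts, green bars are protein-coding neighbours and orange bars are non-coding genes other than piRNA genes. The 6 red stems stand at lin-17, mom-5, lin-18 and cam-1, and those of lin-17, mom-5 and lin-18 all lie upstream of the gene.

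The highest peak at any receptor gene stood upstream of lin-17 (WBGene00003006, on the plus strand of chromosome I from 2706883 to 2717549). It ran from 2703145 to 2703508 with a score of 105.6, rank 48 of the IDR set. It scored 31.0 in replicate 1 and 70.3 in replicate 2, ranking 232 and 30 of the 30000 peaks in each list. The summit lay 3556 bp upstream of the most upstream lin-17 start, and within the non-coding gene Y71F9B.21, which spans 2703263 to 2703458. The other neighbour, F32B5.1, is on the same strand and ends before the peak, so the summit lay beyond its 3′ end, 2907 bp downstream of its start. Of these protein-coding genes the summit was upstream of lin-17 only, though nearer to the F32B5.1 start.

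A second lin-17 peak, from 2706048 to 2706411, lay 653 bp upstream of the same start, with a score of 52.9 and rank 620. Its scores were 36.0 in replicate 1 and 15.4 in replicate 2, at ranks 132 and 4113. Across the 2542 IDR peaks found in both replicates the log2 ratio of replicate 2 to replicate 1 scores had a median of 0.66 and quartiles of 0.17 and 1.16. At this peak it was -1.22, lower than at all but 0.944% of them. The proximal peak of lin-17 was thus among the highest peaks of replicate 1 only, whereas the distal one was among the highest of both, with a log2 ratio of 1.18. Within the gene, weaker pooled peaks lay 300 bp upstream of an internal coding start (score 29.5, rank 2800) and 245 bp upstream of the most downstream one (score 22.3, rank 4622).

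The mom-5 gene (WBGene00003397, plus strand of chromosome I, 9965574 to 9970037) had its IDR peak at 9962828 to 9963191, with a score of 69.3 and rank 235. It scored 28.6 in replicate 1 and 43.5 in replicate 2, at ranks 305 and 220, so both replicates placed it among their highest peaks. The summit was 2564 bp upstream of the mom-5 start and 1033 bp upstream of the start of algn-10, which is transcribed in the opposite direction from the other end of the same intergenic sequence. The non-coding gene T24D1.6 (9962713 to 9962855) lay 155 bp away. A weaker peak at the algn-10 end, 142 bp upstream of that gene's start, had a score of 28.1 and rank 3090. It stood at 23.9 and rank 1616 in replicate 2 but at 7.46 and rank 6343 in replicate 1.

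No peak at mig-1 (WBGene00003238, minus strand of chromosome I, 948569 to 957456) reached the IDR set. Its highest pooled peak lay in intron 1 with the summit 1862 bp downstream of the most upstream start, from 955412 to 955775, with a score of 28.5 and rank 3009. Scores were 9.72 in replicate 1 and 17.9 in replicate 2, at ranks 4237 and 3053, and the summits of both replicate peaks fell within 2 bp of the pooled one. The remaining 4 pooled peaks at mig-1 scored at most 8.56. Of these, 1 overlapped a peak in both replicates, in exon 7 with a score of 6.65, so the intron 1 peak stood well apart from the rest of the locus.

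The cfz-2 gene (WBGene00000478, minus strand of chromosome V, 3441504 to 3444877) had the longest locus of the 6, at 26.5 kb, and the lowest signal. Its highest pooled peak, whose sequence is shown above, scored 23.9 at rank 4127 and lay 9767 bp upstream of the gene. That peak is nearer to slc-28.2, at 5575 bp, than to cfz-2. It scored 5.30 in replicate 1 and 16.3 in replicate 2, at ranks 10910 and 3654. The next peak, with a score of 17.2, had its summit inside a tRNA gene (3455326 to 3455398). Near the cfz-2 start itself, 187 bp upstream, the pooled score was 8.36, below the pooled list's median of 10.5. No peak in the cfz-2 locus was among the 2570 highest of either replicate.

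The Ryk gene lin-18 (WBGene00003007, plus strand of chromosome X, 3958552 to 3961907) had 1 IDR peak in its 15238 bp of upstream intergenic sequence, at 3952469 to 3952832. The score was 40.7 at rank 1309, with 19.3 in replicate 1 and 22.6 in replicate 2, at ranks 1011 and 1824. The summit lay 5901 bp upstream of the lin-18 start but only 9 bp upstream of linc-112, a long intergenic non-coding RNA gene on the same strand (3952660 to 3954347). The upstream sequence held 14 further pooled peaks, with scores of 6.70 to 30.5. Those at its far end were nearer to the start of the neighbour ptp-4A2 than to lin-18. The highest of them, with a score of 26.9, lay 2613 bp upstream of ptp-4A2 and 12626 bp upstream of lin-18. The strongest of the 14, at 3955482 to 3955845, had its summit within the non-coding gene T19D2.8 (3955545 to 3955760). It ranked 2618, 48 places below the last peak kept. It nevertheless overlapped peaks among the 2570 highest of each replicate, at ranks 2033 and 2353. The replicate 1 summit, however, lay at the edge of the pooled peak. A second replicate 1 peak, with its summit at 3955686 near the pooled summit at 3955664, scored 9.40 at rank 4491. At the lin-18 start itself, with the summit 36 bp upstream, the score was 11.9.

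The Ror gene cam-1 (WBGene00000289, minus strand of chromosome II, 9295915 to 9310304) was the only receptor gene with IDR summits inside its body, and both lay in introns. The stronger, at 9299726 to 9300089, scored 65.9 at rank 298. It scored 30.4 in replicate 1 and 34.2 in replicate 2, at ranks 245 and 571. It lay in intron 3 of the longest isoform, 585 bp upstream of the start of a short isoform, and 10396 bp downstream of the most upstream start. The other, at 9308640 to 9309003 in intron 1, scored 36.9 at rank 1697, with a score of 18.0 in each replicate and ranks of 1244 and 3031. Intron 1 also held the peak closest below the cut-off, with a score of 30.7 and rank 2580, which was 8.28 in replicate 1 and 21.5 in replicate 2. A further intron 1 peak scored 26.9 and was the reverse, at 19.6 in replicate 1 and 8.51 in replicate 2. At the most upstream cam-1 start no pooled peak lay within 1000 bp.

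By the highest pooled peak in the locus the order was lin-17 (105.6), mom-5 (69.3), cam-1 (65.9), lin-18 (40.7), mig-1 (28.5) and cfz-2 (23.9). Replicate 2 gave the same order, with 70.3, 43.5, 34.2, 22.6, 17.9 and 16.3. In replicate 1 the highest scores were 36.0 for lin-17, 28.6 for mom-5, 30.4 for cam-1, 19.3 for lin-18, 9.72 for mig-1 and 5.41 for cfz-2. The neighbours mom-5 and cam-1 changed places between the replicates, so their order is within the replicate spread, and every other neighbouring pair kept its order in both. The highest peak of lin-17 was not the same in both, being the proximal peak in replicate 1 and the distal peak in replicate 2. Among the 5151 loci of like length, the median of the highest pooled score was 17.8. The share of those loci with a lower value was 99.4% for lin-17, 97.1% for mom-5, 96.1% for cam-1, 84.1% for lin-18, 68.6% for mig-1 and 61.6% for cfz-2. For cfz-2 the share was 37.8% in replicate 1 and 63.9% in replicate 2.

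**Figure D2:**
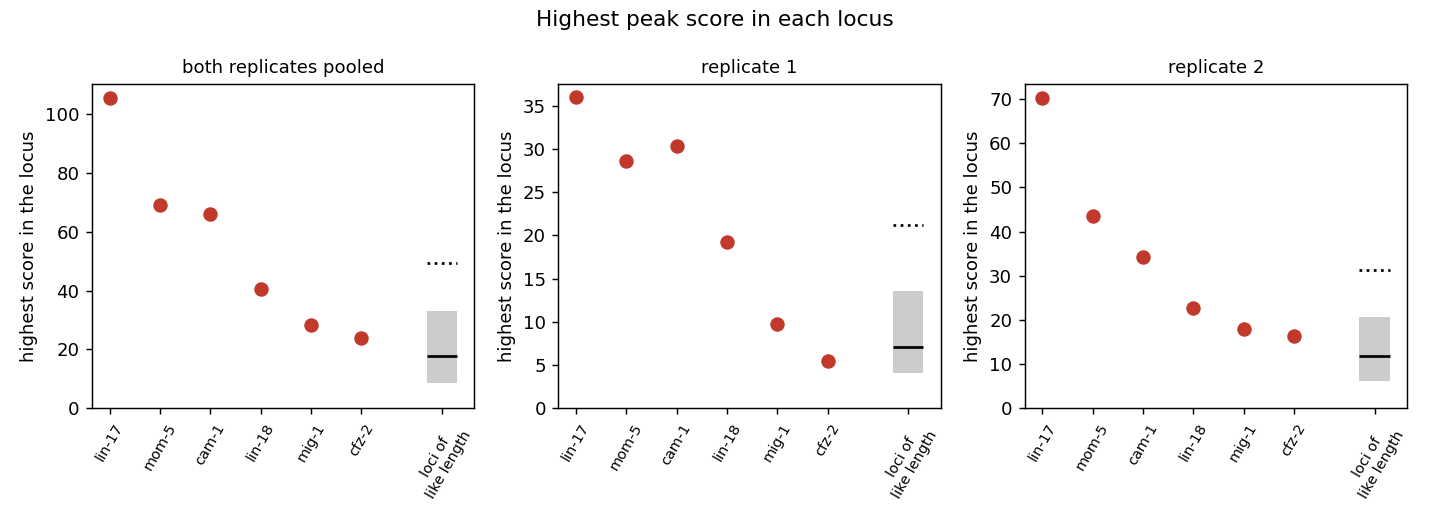
Highest peak score in each receptor locus (red points, authors' scale) in the pooled list and in each replicate, beside the same over the 5151 loci of like length (grey box, quartiles; solid line, median; dotted line, 90th percentile). The genes lin-17, mom-5 and cam-1 lie above the dotted line in all 3 panels, and cfz-2 lies below the solid line in replicate 1.

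**Figure D3:**
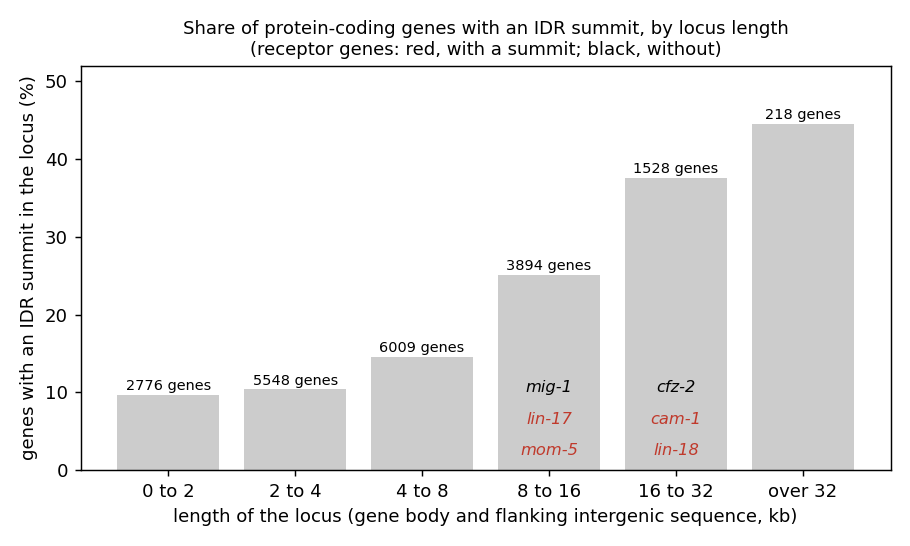
Share of protein-coding genes with an IDR summit in the locus (vertical axis, percent) by locus length in kb (horizontal axis), with the number of genes above each bar. Receptor genes are written in the bar of their length, red with a summit and black without; the share is 25.1% for loci of 8 to 16 kb and 37.6% for loci of 16 to 32 kb, and each of these bars holds 3 receptors, of which 2 have a summit.

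All 6 IDR peaks at receptor loci overlapped a peak in each replicate, and 4 overlapped one of the 2570 highest of both, against 53.3% of all IDR peaks. The 2 that did not were the proximal lin-17 peak and the intron 1 peak of cam-1, both of which fell below the 2570 highest in replicate 2 only. In log2 ratio of replicate 2 to replicate 1, the proximal lin-17 peak lay outside the 5th to 95th percentile range of all IDR peaks, which ran from -0.61 to 2.08. The other 5 lay within it, at 0.00 to 1.18. Read depth is not part of the lists, so no interval can be given for a single peak.

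**Figure D4:**
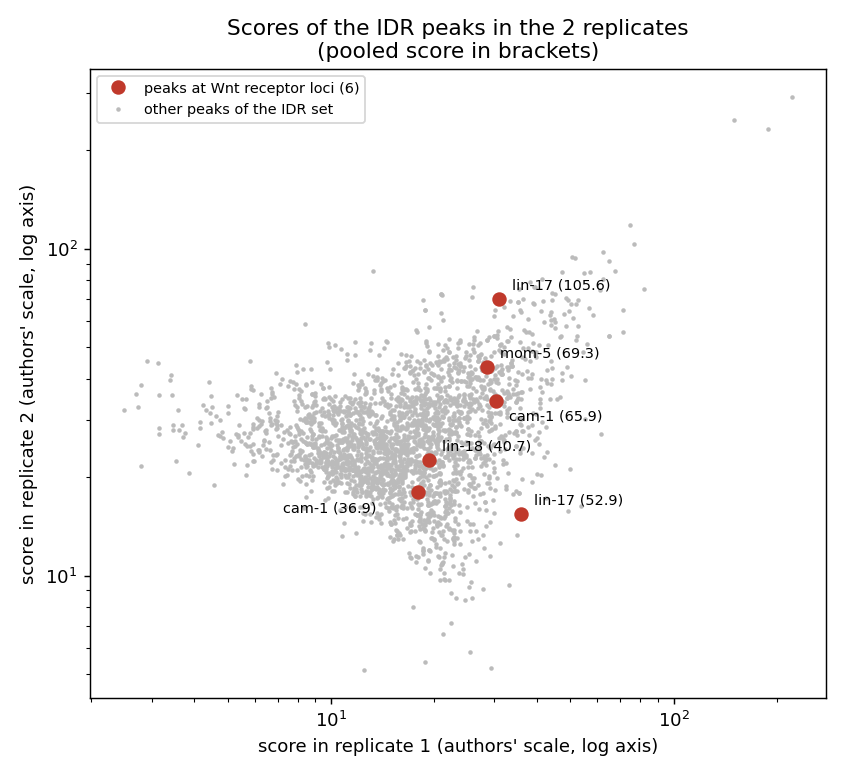
Score in replicate 2 (vertical, log axis) against score in replicate 1 (horizontal, log axis) for the IDR peaks found in both replicates. The 6 receptor peaks are red, labelled with the gene and the pooled score, and other IDR peaks are grey. The lin-17 peak with a pooled score of 52.9 sits low for its replicate 1 score, as do some grey peaks. The other 5 lie within the 5th to 95th percentile range of the log2 ratio of replicate 2 to replicate 1.

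Promoter windows, which reached 1000 bp upstream and 200 bp downstream of each annotated coding start, held IDR summits for 2 of the 6 receptor genes, lin-17 and cam-1, against 8.92% of all protein-coding genes. The cam-1 summit was counted through the internal start of its short isoform. Both genes have 4 annotated coding starts and the other receptor genes 1 or 2, and the share of all genes was not matched for this. With the replicate 1 list left out, the 2570 highest peaks of replicate 2 were used in place of the IDR set. The proximal lin-17 peak was not among them and 1 gene was counted. The share of all genes was then 9.05%. With 500 bp upstream the count was 0, against 7.11% of all genes. Of the 6 summits, 4 lay outside every promoter window, against 46.0% of all IDR summits. Annotated worm starts are often trans-splice sites, so these distances are to the annotation and not to initiation sites.

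In a feature chosen after its values were seen, 3 of the 6 summits lay inside or within 200 bp of an annotated non-coding gene other than a piRNA gene, against 20.1% of all IDR summits. These were the distal lin-17 peak in Y71F9B.21, the mom-5 peak beside T24D1.6 and the lin-18 peak at linc-112. What these RNAs do is not given in the annotation, and whether the peaks belong to them or to the receptor genes was not tested.

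Below the IDR set the receptor loci held 50 weaker pooled peaks, 11 at lin-17, 5 at mig-1, 5 at mom-5, 4 at cfz-2, 14 at lin-18 and 11 at cam-1. Their median score was 11.7, and 35 overlapped a peak in both replicates, where neighbouring pooled peaks can share a replicate peak. No such share over all weaker pooled peaks is given here, so the 35 cannot be read as particular to these loci. The pooled list is labelled as peaks and background, so weaker peaks can be background. In all, the receptor loci held 0.525 pooled peaks per kb, against 0.313 per kb in loci of like length, and 0.0562 IDR summits per kb against 0.0295. Per gene the pooled density ran from 0.151 per kb at cfz-2 to 0.819 per kb at lin-17. The replicate lists placed 54 peaks in the receptor loci in replicate 1 and 57 in replicate 2, of which 13 and 4 overlapped no pooled peak. The share over all peaks of each replicate list is likewise not given.

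Sequence words within 50 bp of the summit were counted on both strands, beside their share of all 2570 IDR windows of the same length. The octamer TGATTTAT stood in 2 of the 6 receptor windows, at mom-5 and lin-18, against 1.17% of all IDR windows. The posterior Hox word TTTATG also stood in 2, at mom-5 and the proximal lin-17 peak, against 11.3%. At mom-5 these words overlapped each other, and the octamer began 4 bp before the summit. At lin-18 the octamer began 26 bp after the summit, on the strand shown, and it is the stretch in capitals. Of the Meis-type word TGACAG there was 1 receptor window, intron 1 of cam-1, against 4.09%.

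The other words stood in none of the 6 receptor windows. Their shares of all IDR windows were 26.8% for the repeat GAGAGA, 4.75% for the E-box CAGCTG, 5.99% for the Hox variant TTTACG, 1.36% for the homeodomain core TAATTA, 1.13% for the Pbx-type word TGATTGAT and 4.01% for CTTTGA, a word of TCF factors. A match describes the letters and does not show a bound site, and its absence says only that the letters are not in the window. Base composition differed little: the receptor windows had 40.6% to 49.5% G and C, and the quartiles of all IDR windows were 40.6% and 49.5%, with a median of 45.5%.

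Elsewhere in the genome, the IDR peaks with the scores most like those of each receptor's highest peak were sought by the distance between their log2 scores in the pooled list and the 2 replicates. For the distal lin-17 peak it was the promoter peak of mig-5, a Dishevelled gene, with scores of 101, 33.3 in replicate 1 and 69.1 in replicate 2 (distance 0.12). For mom-5 it was a peak nearest to cec-4 (distance 0.049), for lin-18 a peak nearest to bli-4 (0.038), and for the stronger cam-1 peak a peak nearest to nra-2 (0.050). Likeness in 3 scores says nothing of shared function.

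Among 32 other genes of the pathway, from ligands to nuclear factors, 11 (34.4%) had an IDR summit in their locus, against 16.9% of all protein-coding genes, and 6 had a summit in a promoter window, against 8.92%. Their loci were shorter than those of the receptors, with a median of 8.81 kb, and 25.1% of all genes with loci of 8 to 16 kb had a summit. The promoter summits were those of the ligand genes cwn-1 (48.1) and egl-20 (32.9), the Dishevelled genes mig-5 (101) and dsh-1 (69.6), the kinase gene lit-1 (41.7) and the planar polarity gene vang-1 (43.6). Of the 4 beta-catenin genes sys-1 alone had a summit in its locus, and pop-1, the TCF gene, had none. Of the 7 Axin, APC and kinase genes kin-19 and lit-1 had summits, and of the 7 ligand secretion genes mtm-3 did.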

How the data were processed

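Peak lists of 2 biological replicates of 1 group were used. The authors deposited narrowPeak lists on ce11 for each replicate and for both together, labelled as peaks and background for IDR, and an IDR-thresholded list derived from them, according to their deposited notes. Aligner, peak caller, versions and IDR threshold were not given in the sources used here. The deposited score of each peak, on the authors' own scale, was used to rank and describe peaks within a list. The deposited −log10 q-value was at its maximum in 67.3% of IDR peaks and was not used. The labels give fragment sizes of 150 to 350 bp; read depth is unknown.

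The numbering of replicates differs between builds: at equal rank the ce11 scores of replicate 1 differed by a median of 64.7% from replicate 1 on ce10 and by 0.219% from replicate 2. Numbers here follow ce11, and which biological sample each belongs to could not be settled.

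The annotation was Ensembl release 115 for WBcel235 (ce11), with 29314 protein-coding starts. Genes nested within a receptor gene did not bound its locus, and a flank can belong to both neighbours. Replicate support was the highest-scoring replicate peak overlapping by at least 1 bp. Counts are descriptions without a test, because there is 1 group and the members, lists and words were chosen with earlier results of these data known. All receptor genes and all their IDR summits are named, with the highest weaker peak of each locus, and pathway genes with an IDR summit in a promoter window; other weaker peaks and pathway genes were named after their values were seen. Counting was tested on simulated data. Python 3.11.15, pandas 2.3.3 and numpy 2.4.6 were used.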

Additional observations from a re-analysis of the deposited data

How the results depend on the processing

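The count of 4 receptor genes with an IDR summit stayed 4 by peak overlap (17.4% of all genes). With a replicate left out no IDR set exists, and the 2570 highest peaks of the other replicate were used in its place. By these lists the count was also 4, with replicate 1 left out (16.8%) and with replicate 2 left out (16.2%). The count was 3 under a stricter list (9.69%), non-coding bounds (13.2%) and nearest starts (10.6%), where the share of all genes fell too. It was 1 in gene bodies alone (3.25% of all genes), where 2 summits were counted, both of cam-1. The 6 summits numbered 4 to 6 under the other alternatives. The lists with a replicate left out held 7 to 8 summits in the receptor loci, and these included peaks outside the IDR set. The 2 genes with a promoter summit became 1 with only the most upstream start (8.25% of all genes) and 0 with 500 bp upstream (7.11%). They numbered 1 with replicate 1 left out (9.05%) and 2 with replicate 2 left out (7.81%). Of the 6 summits, all 6 overlapped any peak of both replicates (98.9% of all IDR peaks) and 3 overlapped peaks among the 1285 highest of both (26.2%). TTTATG stood near 3 within 100 bp (20% of all IDR peaks) and in 3 whole peaks (32.8%). No paired analysis was possible because there is 1 group. Peaks near the cut-off depend on where it lies: cam-1, lin-18, lin-17, mig-1 and mom-5 each had a peak ranked 2580 to 3090, and depth is unknown.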

Other observations

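Among the pathway genes outside the receptors, both genes that act on Wnt receptors or ligands outside the cell or at its surface had an IDR summit in their locus, named here after their values were seen. The plr-1 gene, on chromosome III, encodes a transmembrane ubiquitin ligase that lowers Frizzled at the cell surface, and its locus of 21098 bp held 3. The highest scored 117.1 at rank 30, above the highest receptor peak, with 49.3 in replicate 1 and 69.7 in replicate 2. It lay 8353 bp upstream of plr-1 and was nearer to the start of sbp-1, at 5958 bp. The other 2 lay 2425 and 1216 bp upstream of plr-1, with scores of 60.5 and 33.4. The sfrp-1 gene, for a secreted Frizzled-related protein, had 1 summit in its locus of 21100 bp, beyond the 3′ end of the gene and 4279 bp downstream of its nearest start, with a score of 41.3, 13.4 in replicate 1 and 25.5 in replicate 2. By the locus rule 16.9% of all protein-coding genes had an IDR summit, and 37.6% of those with loci of 16 to 32 kb.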
